A study of Mus musculus with 39 samples.

Results

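The genes described here are 7 secreted or secretion-linked products of white adipose tissue, the adipokines Lep (leptin), Adipoq (adiponectin), Retn (resistin), Cfd (adipsin, complement factor D), Rbp4 (retinol binding protein 4), Nampt (nicotinamide phosphoribosyltransferase, also called visfatin) and Apln (apelin). They were chosen by name. Of the 29411 gene names spotted on the array, these 7 account for 11 of 40628 probes, and the brightest probe stood for its gene, while the remaining probes (1 for Retn, 1 for Nampt and 2 for Apln) served as a check.

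White adipose tissue is an endocrine organ as well as a fat store. Leptin is secreted in proportion to fat mass and fat cell size and acts through the brain to restrain food intake, whereas adiponectin, which is made almost exclusively by mature adipocytes, improves insulin sensitivity and tends to circulate at lower levels in obesity. The other products link the fat cell to insulin resistance, to the alternative complement pathway, to the transport of vitamin A, to the salvage of NAD and to the vessels that grow with the tissue.

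RNA of epididymal adipose tissue from C57BL/6J mice was hybridised to 39 single-colour Agilent arrays, 1 array for each diet and time point. The animals were weaned at 3 to 4 weeks of age and entered 5 groups of 30 animals, 5 animals of each group being killed every 3 weeks. Mice on the low fat control diet with 10% of its calories from fat (LFC) gave 11 arrays, taken on days 1, 6, 10 and 14 and then in weeks 0, 3, 6, 9, 12, 15 and 18. A high fat diet with 60% of its calories from fat and increased sucrose (HFC) had 10 arrays, at the same time points from day 6 on. Mice of the groups HF5, HF20 and HF75 ate the high fat diet and received 5, 20 or 75 µg of KAL-1, an aqueous botanical formulation, and had 6 arrays each, at weeks 3 to 18. The study's methods count weeks from day 14, so that the arrays of day 14 and of week 0 carry the same nominal time. The sources used here do not say how many of the killed animals went into an array. Since time points take the place of replicates, every p-value below measures the spread between arrays of different time points and not between animals.

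Levels are log2 of the processed signal minus the 75th percentile of the array, a scale on which a difference of 1 is a factor of 2. Because each probe has its own brightness, a level is compared between arrays and never between genes. A difference was called where the adjusted p of limma, after Benjamini-Hochberg adjustment over all probes tested, was under 0.05. None of the 7 genes was called in any comparison, so unadjusted p-values, exact two-sided permutation tests over time points and the number of time points with the same sign are given as well.

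Several arrays stood apart from the others. On LFC week 3 and HFC week 12, 97.1% and 94.5% of spots were well above background and 16431 and 10531 spots were outliers, against 53.7% to 79.6% and 21 to 387 on the other 37 arrays. These 2 arrays are ringed in the plots, and the main values that rest on them are also given without them. HF5 week 9 had the lowest share of spots above background (53.7%), the lowest median correlation with the other arrays among the 37 (0.897) and the dimmest signal, with a 75th percentile of 119.5 against 347.5 or more elsewhere. The arrays labelled week 6 of LFC, HFC, HF5 and HF75 went against their tissue label, since the median of 5 mesothelium markers lay 4.97 to 5.81 below its mean over the 37 arrays and Upk3b, a mesothelial gene, was not well above background, while in HF20 at week 6 that median lay 0.49 above. Tbx15, a gene of subcutaneous fat, was well above background on the same 4 arrays and not on the HF20 array, but on 13 of the 39 arrays in all. Its level was -1.46 to -0.52 on these 4 arrays and -1.39 and -2.73 on LFC week 3 and HFC week 12. On every other array Tbx15 was -4.71 or lower. Among the other subcutaneous genes listed, Shox2 was well above background on 4 week 6 arrays, Sncg on all 5 and En1 on none. Values that move with week 6 are therefore also given without it. All 10 adipocyte markers were well above background on every array, but a list of 10 epididymis genes lay 4.23 to 6.36 above its mean on 8 arrays, namely LFC days 1, 10 and 14 and weeks 3 and 9, HFC day 10, and HF20 weeks 3 and 15. Spots were saturated for Cfd on 27 of the 39 arrays, for Adipoq on 16, for Rbp4 on 6 and for Retn on 4, where the true level may lie above the value given. The probes of Lep, Nampt and Apln were never saturated, and all 7 probes were well above background on every array with a value.

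The proximal promoters are shown for the genes whose levels moved together most closely, and for Lep, which followed them less closely. Promoter windows were taken from RefSeq on build GRCm38.p6, which matched all 7 genes with 8 windows (Rbp4 has 2), and the 200 bases before the start site are printed 5′ to 3′ on the strand of the gene. Lep lies on chromosome 6 (chr6:29060021-29060220, plus strand), Adipoq on chromosome 16 (chr16:23146336-23146535, plus), Retn on chromosome 8 (chr8:3655570-3655769, plus) and the start of Rbp4 shown here on chromosome 19 (chr19:38124812-38125011, minus). Capitals mark the letters TTGCNNAA, the form of site bound by C/EBP factors of the fat cell, and TATAAA, the TATA box.
Lep: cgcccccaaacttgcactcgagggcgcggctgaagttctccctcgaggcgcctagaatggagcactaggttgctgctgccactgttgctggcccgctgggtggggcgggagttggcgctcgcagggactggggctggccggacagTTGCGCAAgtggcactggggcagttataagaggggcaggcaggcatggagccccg
Adipoq: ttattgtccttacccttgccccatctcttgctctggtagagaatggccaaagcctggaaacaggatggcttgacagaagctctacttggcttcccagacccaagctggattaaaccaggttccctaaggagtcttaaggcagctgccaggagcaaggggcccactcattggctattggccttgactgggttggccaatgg
Retn: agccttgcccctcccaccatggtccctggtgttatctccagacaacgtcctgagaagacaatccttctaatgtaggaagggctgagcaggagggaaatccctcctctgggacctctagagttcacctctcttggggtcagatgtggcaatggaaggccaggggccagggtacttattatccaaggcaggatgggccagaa
Rbp4: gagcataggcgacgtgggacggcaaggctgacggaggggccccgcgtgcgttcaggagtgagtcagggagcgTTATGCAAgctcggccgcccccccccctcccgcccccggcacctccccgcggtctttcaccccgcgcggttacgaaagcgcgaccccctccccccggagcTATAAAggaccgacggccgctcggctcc
Lep held TTGCGCAA beginning 55 bases before its start, and Rbp4 held TTATGCAA, which is TTGCNNAA read on the other strand, beginning 128 bases before and TATAAA 28 bases before. Over the whole windows of 300 bases and both strands, TTGCNNAA occurred in 10.8% of 32851 windows of all genes and TATAAA in 13.6%. Neither was present in the windows of Adipoq, Retn, Cfd, Nampt or Apln. The letters GGGCGG, bound by Sp1, occurred once or more in the windows of Lep, Rbp4, Nampt (5 times) and Apln and in 35.7% of all windows, and the E-box CACGTG occurred in none of the 8 and in 7.15% of all. The promoter of Lep was 67% G and C and that of Rbp4 72%, against 53% for Adipoq and 55% for Retn. These matches describe the letters only.

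Lep was higher on the high fat diet than on the low fat diet during the first weeks, by a factor of 8.48 on average over days 6, 10 and 14 and week 0, and the difference was smaller from week 3 on. Its level in LFC ranged from -2.52 (week 6) through a median of -0.68 to 2.31 (week 18), and in HFC from -1.99 (week 6) through 1.02 to 3.31 (day 14). The groups overlapped, but within a time point HFC lay above LFC at 8 of 10.

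**Figure D1:**
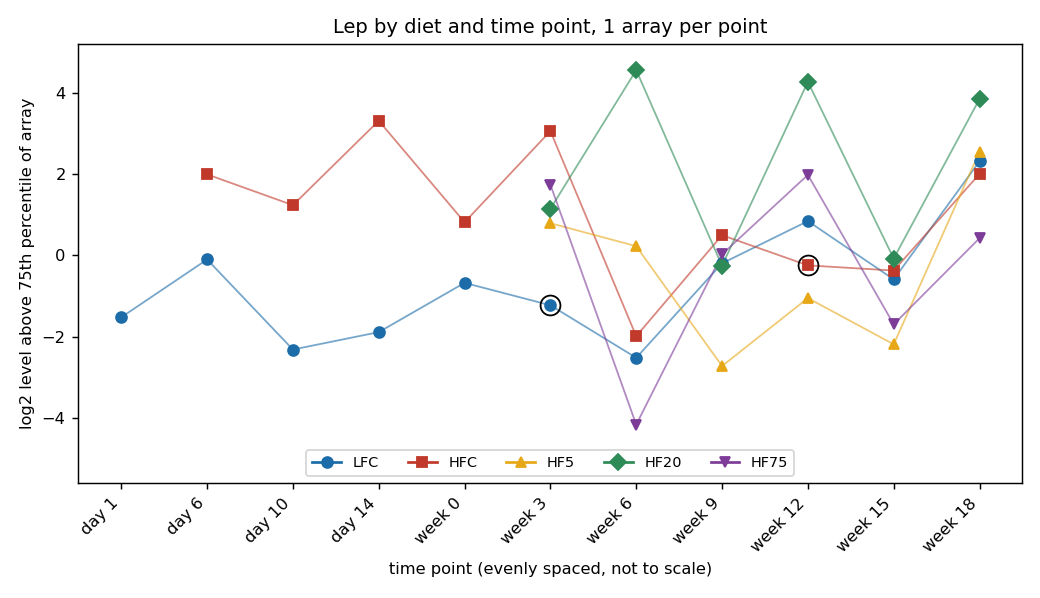
Level of Lep (y axis, log2 above the 75th percentile of the array) at each time point (x axis, evenly spaced and not to scale) in LFC, HFC, HF5, HF20 and HF75, 1 array per point, with the arrays LFC week 3 and HFC week 12 ringed. HFC lies above LFC at each time point from day 6 to week 9 and at week 15, while the 3 KAL-1 groups spread from -4.16 to 4.56.

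In the early arrays Lep in LFC was -0.10 at day 6, -2.32 at day 10, -1.89 at day 14 and -0.68 at week 0. In HFC it was 1.99, 1.23, 3.31 and 0.81 at the same time points. All 4 early HFC arrays thus lay above all 4 early LFC arrays. The mean HFC minus LFC difference was 3.08 (SE 0.78), with limma p = 0.00219 and adjusted p = 0.914, the probe ranking 18 of 29168 by p. An exact test flipping the signs of the differences gave p = 0.125, the smallest that 4 pairs allow. Of all probes, 0% passed the adjusted threshold in this comparison and 4.35% had an unadjusted p under 0.05, and of the 7 genes Lep alone did.

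From week 3 to week 18 the HFC minus LFC difference in Lep was 4.29, 0.53, 0.69, -1.09, 0.22 and -0.31, with a mean of 0.72 (SE 0.64, limma p = 0.283, adjusted p = 1). The largest of these, week 3, and the lowest, week 12, each involve one of the ringed arrays. Without week 3 the late mean was 0.0082, and without both weeks it was 0.28 (SE 0.52). Late and early differences differed by -2.36 (SE 1.01, limma p = 0.0387, adjusted p = 0.841), where 0% of probes were called after adjustment and 5.14% had p under 0.05. Without both weeks they differed by -2.80 (SE 0.73, limma p = 0.00374, adjusted p = 0.705), and there 1855 of 27870 probes had p under 0.05. Over all 10 time points Lep was 1.67 higher (SE 0.58, limma p = 0.0137, adjusted p = 0.998, a factor of 3.17), against 0% of probes called and 3.05% with p under 0.05. The exact sign-flip test, which keeps the size of each paired difference, gave p = 0.0313 over 10 pairs. It gave p = 0.0234 without weeks 3 and 12 (7 of 8 pairs higher), p = 0.0430 without week 6 (7 of 9), and p = 0.0625 with day 14 and week 0 averaged into a single pair (7 of 9, mean 1.48).

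Lep is a product of the mature adipocyte, and in whole tissue a smaller share of adipocytes and less RNA per adipocyte cannot be told apart. The level of Lep was therefore also set against the median of the 10 adipocyte markers of the same array (Plin1, Cidec, Lipe, Pnpla2, Slc2a4, Cd36, Lpl, Aqp7, Plin4 and Acsl1), a choice made after the levels had been seen. This median itself was 0.30 higher in HFC on average (higher at 6 of 10 time points, range -1.92 to 2.67), and 0.69 higher over the early pairs. Relative to it, Lep in LFC was -7.08 at day 1, -6.22 at day 6, -6.70 at day 10, -4.87 at day 14 and -5.05 at week 0, and then between -5.66 and -3.53 from week 3 on. In HFC it ranged from -5.07 (week 6) to -2.24 (day 14). HFC lay above LFC at all 10 time points.

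**Figure D2:**
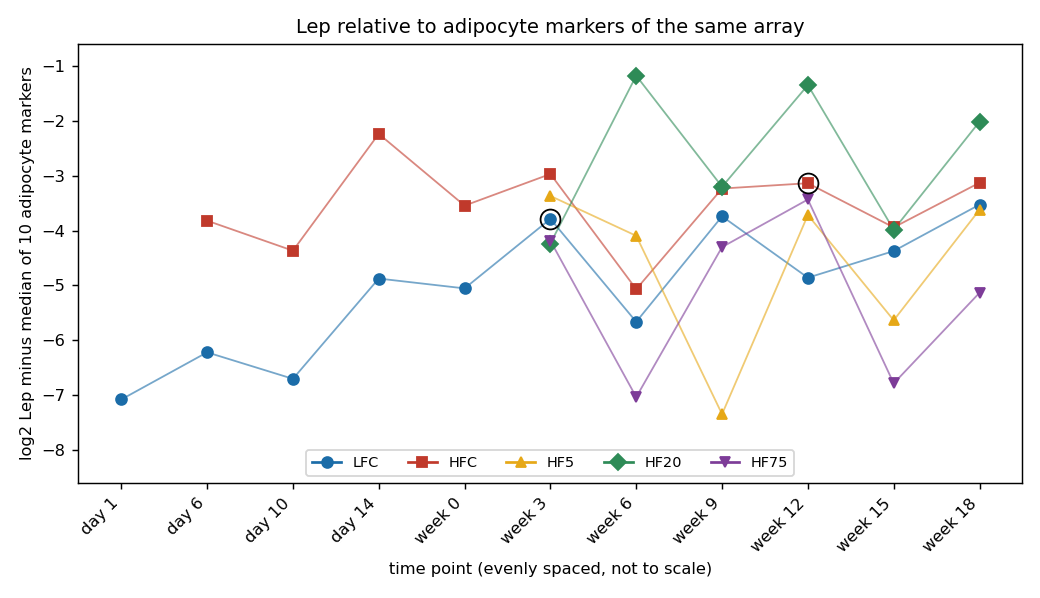
Lep minus the median of 10 adipocyte markers of the same array (y axis, log2) at each time point (x axis, evenly spaced), 1 array per point, for LFC, HFC, HF5, HF20 and HF75, with LFC week 3 and HFC week 12 ringed. HFC lies above LFC at all 10 shared time points, HF75 lies below HFC at all 6, and LFC climbs from its lowest value at day 1.

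On this scale the mean HFC minus LFC difference was 1.33 ± 0.89 (SD, n = 10 pairs), with single differences of 0.40 to 2.64 and an exact p = 0.00195, the smallest that 10 pairs allow. It was 1.42 without week 6 (9 of 9 higher, exact p = 0.00391), 1.35 without weeks 3 and 12 (8 of 8, exact p = 0.00781) and 1.25 with day 14 and week 0 averaged (9 of 9, exact p = 0.00391). The early difference was 2.22 ± 0.49 (SD, 4 of 4 pairs, exact p = 0.125) and the late difference 0.75 ± 0.50 (SD, 6 of 6 pairs, exact p = 0.0313, the smallest possible in each case). Some markers were saturated on part of the arrays. Against the 2 that never were, Lipe and Aqp7, the difference was 1.28 ± 1.17 (SD, higher at 9 of 10, exact p = 0.00586) over 10 pairs and 0.54 ± 0.66 (SD, higher in 5 of 6, exact p = 0.0938) over the late pairs.

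Within LFC, Lep relative to the adipocyte markers was -5.99 ± 0.98 (SD, n = 5) in the early arrays and -4.32 ± 0.82 (SD, n = 6) in the late arrays, a difference of 1.66 (exact permutation p = 0.0195, and 0.0397 without week 3 or 0.00794 without week 6). Within HFC the same difference was -0.09 (exact p = 0.881). The level itself differed in LFC by 1.07 (SE 0.75, limma p = 0.179), a comparison in which 0.49% of probes were called after adjustment and 5.52% had p under 0.05. In HFC it differed by -1.35 (SE 0.89, limma p = 0.16), where 0% and 17.3% did, and by -0.85 without week 6 (exact p = 0.373). As a linear trend over days, the level in LFC changed by 1.97 per 100 days (SE 0.65, limma p = 0.0101, adjusted p = 0.600). In that fit 1588 of 30418 probes had p under 0.05. The trend in HFC was -1.18 per 100 days (SE 0.96, limma p = 0.243). All day arrays (days 1 to 14) went through the scanner after all week arrays, so that time and scan period largely coincide. Within the earlier period alone, which leaves week 0 as the only early array, the difference in the level of Lep was 0.45 in LFC and -0.32 in HFC.

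Macrophage markers, as a list median, were 0.90 higher in HFC over the 4 early pairs (higher in 3), mesothelium markers 0.96 higher (2 of 4) and liver genes 1.30 higher (3 of 4). Testis genes were 2.09 lower, epididymis genes 1.49 lower and endothelial markers 0.93 lower, each in 3 of 4. Their part in the early difference in Lep was not tested.

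The gene names whose levels followed Lep most closely over the 37 arrays were Eepd1 (r = 0.91), Krt79 (0.87) and Tmem45b (0.87), out of 17970 names. After the mean of each time point was removed, r was 0.90, 0.85 and 0.84. These are descriptions across arrays that share diet, scan and tissue composition.

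Adipoq, Retn and Rbp4 moved together from array to array and with the adipocyte markers, and none of them differed between the diets beyond the spread. Adiponectin is the insulin-sensitising hormone of the fat cell, resistin is linked in mice to insulin resistance, and Rbp4 carries retinol in plasma. Adipoq ranged from 3.04 through a median of 4.77 to 6.60 in LFC and from 3.75 through 5.45 to 6.57 in HFC. Retn ranged from 1.09 through 2.87 to 6.26 in LFC and from 0.63 through 3.68 to 6.03 in HFC, and Rbp4 from 2.23 through 4.07 to 6.17 and from 2.26 through 4.40 to 6.03. For all 3 the ranges of the diets overlap almost entirely.

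**Figure D3:**
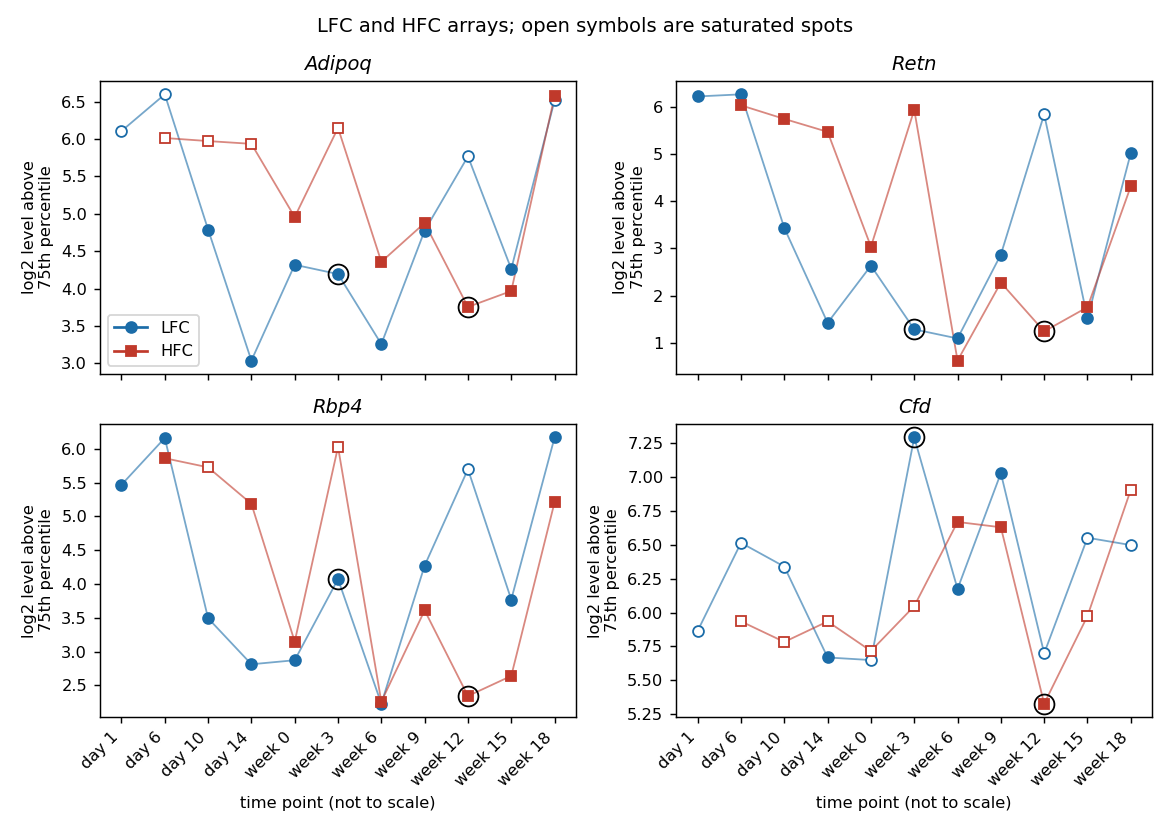
Levels of Adipoq, Retn, Rbp4 and Cfd (y axes, log2 above the 75th percentile of the array) by time point (x axes, evenly spaced) in LFC and HFC, 1 array per point, with open symbols where the spot was saturated and the arrays LFC week 3 and HFC week 12 ringed. Adipoq, Retn and Rbp4 dip and peak on the same arrays, while Cfd stays within 5.33 to 7.29 and is saturated on 7 of 11 LFC and 7 of 10 HFC arrays.

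None of the 3 genes passed a test in the early arrays. At days 10 and 14 Retn was 3.43 and 1.42 in LFC against 5.74 and 5.47 in HFC, and Rbp4 was 3.49 and 2.81 against 5.73 and 5.19. At day 6, by contrast, LFC was above HFC for all 3, with Retn at 6.26 against 6.03, Rbp4 at 6.16 against 5.86 and Adipoq, saturated on both arrays, at 6.60 against 6.01. The mean early differences were 1.63 (SE 1.12, limma p = 0.173) for Retn, 1.15 (SE 0.71, p = 0.133) for Rbp4 and 1.03 (SE 0.62, p = 0.124) for Adipoq, each with adjusted p = 0.914. Over 10 time points they were 0.50 (SE 0.73), 0.05 (SE 0.50) and 0.50 (SE 0.40), with limma p of 0.503, 0.928 and 0.229 and adjusted p of 0.998. From week 3 on Rbp4 was 0.69 lower in HFC (SE 0.58, p = 0.259), and relative to the adipocyte markers 0.66 lower and lower in 5 of 6 weeks (exact p = 0.0625). The widest gap on that scale was at week 3, with 1.51 on the ringed LFC array against 0.0029 in HFC.

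Retn in HFC was 6.03, 5.74, 5.47 and 3.04 in the early arrays and 5.93, 0.63, 2.28, 1.24, 1.76 and 4.31 from week 3 to week 18. Of the late arrays, only week 3 lay above the early mean of 5.07. The late mean was 2.38 lower (SE 1.02, limma p = 0.0397, adjusted p = 0.271, exact permutation p = 0.0714), and it was 1.96 lower without week 6 (exact p = 0.143). The other probe of Retn was 2.31 lower (limma p = 0.0483). Since 17.3% of all probes had an unadjusted p under 0.05 in this comparison, 1 of 7 genes does not exceed the background, and within the earlier scan period the late arrays were 0.35 lower than week 0.

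Cfd, the serine protease that activates the alternative complement pathway, kept a narrow range, from 5.65 through a median of 6.34 to 7.29 in LFC and from 5.33 through 5.95 to 6.90 in HFC. The highest value of all 39 arrays was 8.90, on the dim HF5 array of week 9. HFC minus LFC was -0.25 over 10 time points (SE 0.20, limma p = 0.236, exact p = 0.18), and 0.01 under quantile scaling. With 27 arrays saturated, 7 of them in LFC and 7 in HFC, the range of this probe is compressed from above. The probes whose values were most like it, Rplp2 (r = 0.96), Gm14303 (0.95) and Gm4613 (0.95), were saturated on 36 of 37 arrays, so that this likeness is one of saturated spots.

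Nampt, the rate-limiting enzyme of NAD salvage, which is also found outside cells, was lower on the high fat diet at 9 of 10 time points. In LFC it ranged from -1.66 through a median of 1.80 to 2.50 and in HFC from 0.98 through 1.36 to 2.02. The lowest LFC value is that of the ringed week 3 array, and the next lowest lay above the median of HFC. The HFC minus LFC difference was -0.25 at day 6, -0.14 at day 10, -0.04 at day 14, -0.42 at week 0, 3.68 at week 3, -0.95 at week 6, -0.35 at week 9, -1.52 at week 12, -0.72 at week 15 and -0.68 at week 18.

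**Figure D4:**
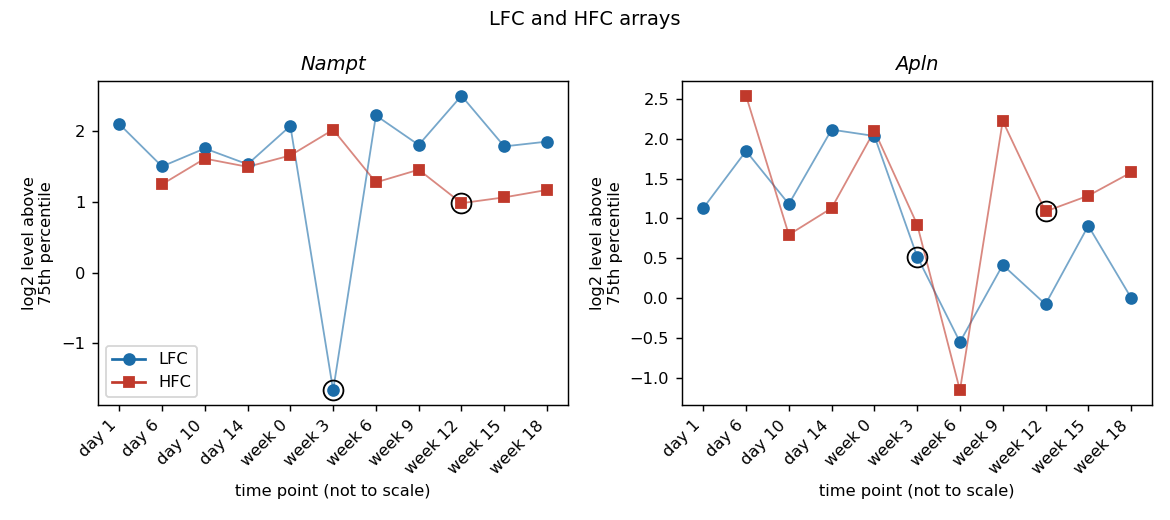
Levels of Nampt and Apln (y axes, log2 above the 75th percentile of the array) by time point (x axes, evenly spaced) in LFC and HFC, 1 array per point, with LFC week 3 and HFC week 12 ringed. HFC lies below LFC for Nampt at each shared time point except week 3, and Apln in LFC drops from 1.13 to 2.11 in the early arrays to -0.55 to 0.91 in the late arrays.

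The mean over 10 pairs was -0.14 (SE 0.41, limma p = 0.739, adjusted p = 0.998, exact p = 0.846), a value that turns on week 3 and that was 0.29 under quantile scaling. Without weeks 3 and 12 it was -0.44 ± 0.31 (SD) and lower in 8 of 8 pairs (exact p = 0.00781, the smallest possible), and without week 6 as well it was -0.37 and lower in 7 of 7 (exact p = 0.0156). The other Nampt probe, which lacked a value on both ringed arrays, was 0.73 lower over 8 pairs (SE 0.24, limma p = 0.0122, adjusted p = 0.998) and lower in 7 of 8 (exact p = 0.0156). Names that followed Nampt most closely were Otud6b (r = 0.85), Cops2 (0.84) and Cdc73 (0.83).

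Apln, the ligand of the receptor Aplnr that is made by adipocytes and by growing vessels, was lower in the late than in the early arrays of the low fat diet. In LFC it was 1.13, 1.85, 1.18, 2.11 and 2.03 from day 1 to week 0 and 0.52, -0.55, 0.42, -0.08, 0.91 and 0.01 from week 3 to week 18. The early and late arrays did not overlap. The late mean was 1.46 lower (SE 0.36, a factor of 2.74, limma p = 0.00145, adjusted p = 0.161, exact permutation p = 0.00433), and Apln was the only one of the 7 genes with an unadjusted p under 0.05 in this comparison, beside 5.52% of all probes (0.49% after adjustment). Without week 3 and without week 6 the exact p was 0.00794 in each case, and within the earlier scan period, where week 0 is the only early array, the late arrays were 1.83 lower. The second brightest probe was lower by a factor of 4.01 (limma p = 0.00134, adjusted p = 0.155), while the third was well above background on only 6 of 11 LFC arrays. Relative to the adipocyte markers the late mean was 0.87 lower and the exact p was 0.374. Aplnr, the receptor, was 1.26 lower (SE 0.61, limma p = 0.0612, adjusted p = 0.923).

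In HFC Apln was 2.54, 0.80, 1.13 and 2.10 in the early arrays and 0.92, -1.15, 2.22, 1.09, 1.28 and 1.58 in the late arrays, which overlap with the early ones. The late mean was 0.65 lower (SE 0.60, limma p = 0.303), and 0.22 lower without week 6. From week 3 on Apln was higher in HFC than in LFC in 5 of 6 weeks, by 0.40, -0.60, 1.81, 1.16, 0.38 and 1.57, with a mean of 0.79 (SE 0.34, limma p = 0.0402, adjusted p = 1, exact p = 0.125). In this comparison 0% of probes were called after adjustment and 3.81% had p under 0.05. Without week 6 it was 1.06 ± 0.66 (SD) and higher in 5 of 5 weeks (exact p = 0.0625, the smallest possible), and the second brightest probe was 1.39 higher over 6 weeks (limma p = 0.00615, exact p = 0.0938). The early difference was -0.15 (SE 0.42), and late minus early of the diet difference was 0.94 (SE 0.54, limma p = 0.107, adjusted p = 0.841). For the second brightest probe it was 1.49 (SE 0.65, limma p = 0.0431, adjusted p = 0.841). Apln was followed most closely by Lpar4 (r = 0.79), Prnd (0.76) and Adamts7 (0.73).

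With KAL-1 the 7 genes did not differ from HFC beyond the spread between weeks in the fit of 30 arrays. After adjustment 0% of probes were called for HF5, HF20, HF75 and the mean of the 3 doses, and an unadjusted p under 0.05 was reached by 3.42%, 4.84%, 1.5% and 1.75% of probes and by none of the 7 genes. For HFC against LFC and for the mean of the 4 high fat groups against LFC in the same fit, 0% were called in each. Of all probes 2.31% and 6.1% had p under 0.05, and none of the 7 genes did by its brightest probe. The brightest Apln probe had limma p of 0.0925 and 0.111. The second brightest Apln probe was 1.39 higher (SE 0.53, limma p = 0.0145) and 1.19 higher (SE 0.42, limma p = 0.00863, adjusted p = 0.757). The third, well above background on 23 of 39 arrays, had limma p of 0.0128 and 0.0103. The doses share the HFC arrays as their control.

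Lep spread most across the dosed groups. In HF5 it ranged from -2.72 through a median of -0.41 to 2.55, in HF20 from -0.25 through 2.50 to 4.56 and in HF75 from -4.16 through 0.22 to 1.98. HF20 held the highest values, at weeks 6, 12 and 18, and the lowest value of all arrays was that of HF75 at week 6. Mean levels over weeks 3 to 18 were 2.25 ± 2.23 in HF20, 0.49 ± 1.81 in HFC, -0.23 ± 1.67 in LFC, -0.28 ± 2.32 in HF75 and -0.40 ± 1.98 in HF5 (SD, n = 6 each). No neighbours in this order differed by more than their SD, but neighbours in a sorted order lie close by construction. This SD also leaves out the pairing by week. The ends of the order, HF20 and HF5, lay further apart than the SD of either, a difference that was not tested. HF20 minus HFC was 1.76 (SE 0.92, limma p = 0.0695, adjusted p = 0.78), 0.80 without week 6 (SE 0.78, p = 0.316) and 1.20 without week 12 (SE 1.01, p = 0.248). Without both weeks it was -0.13 and higher in 2 of 4 weeks, so its direction rests on these 2 weeks. The HFC array of week 12 is one of the ringed arrays. At week 6 the HFC array went against its tissue label by its low mesothelium markers, and the HF20 array did not. HF5 minus HFC was -0.89 (SE 0.92, limma p = 0.345), -1.51 without week 6 and -0.42 without week 9. HF75 minus HFC was -0.77 (SE 0.92, limma p = 0.411), -0.49 without week 6 and -1.37 without week 12.

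Relative to the adipocyte markers, Lep in HF75 was -4.19, -7.03, -4.30, -3.43, -6.78 and -5.13 from week 3 to week 18, and in HFC -2.97, -5.07, -3.23, -3.14, -3.94 and -3.13. HF75 lay below HFC in all 6 weeks. The mean difference was -1.57 ± 0.89 (SD, exact p = 0.0313, the smallest possible), and without week 6 it was -1.49 in 5 of 5 weeks (exact p = 0.0625, the smallest possible). Against Lipe and Aqp7 alone it was -1.36 and lower in 5 of 6 (exact p = 0.0938). On the same scale HF5 minus HFC was -1.05 (lower in 5 of 6, exact p = 0.188), -1.46 without week 6 (lower in 5 of 5, exact p = 0.0625) and -0.44 without the dim array of week 9 (lower in 4 of 5). Against Lipe and Aqp7 alone HF5 was -1.30 and lower in 6 of 6 (exact p = 0.0313), and -0.80 without week 9 (lower in 5 of 5, exact p = 0.0625). HF20 minus HFC was 0.92 (higher in 4 of 6, exact p = 0.344), 0.32 without week 6 (3 of 5) and -0.041 without weeks 6 and 12 (2 of 4). Whether the doses differ from each other was not tested. These 3 doses were compared on this scale after the values had been seen, and the p-values are not adjusted.

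For the other genes, the means over weeks 3 to 18 are given in order. Retn was 4.38 ± 1.76 in HF20, 3.17 ± 2.12 in HF75, 2.94 ± 2.04 in LFC, 2.72 ± 1.47 in HF5 and 2.69 ± 2.03 in HFC (SD, n = 6 each). Adipoq ran from 5.43 ± 1.00 in HF20 through HF75, HFC and HF5 to 4.79 ± 1.18 in LFC, and Rbp4 from 4.83 ± 1.15 in HF20 through LFC, HF75 and HF5 to 3.68 ± 1.60 in HFC, the HF75 mean of Rbp4 resting on 5 arrays because the week 18 spot was an outlier. Cfd lay between 6.07 ± 0.39 (HF20) and 6.62 ± 1.30 (HF5), with LFC, HF75 and HFC between them.

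Nampt was 1.92 ± 0.73 in HF75, 1.72 ± 0.52 in HF20, 1.42 ± 1.54 in LFC, 1.33 ± 0.38 in HFC and 1.27 ± 0.72 in HF5 (SD, n = 6 each). The LFC mean of Nampt takes in the ringed week 3 array at -1.66, and the place of LFC in this order rests on that array. Apln was 1.31 ± 0.75 in HF5, 0.99 ± 1.15 in HFC, 0.66 ± 1.00 in HF75, 0.21 ± 0.83 in HF20 and 0.20 ± 0.52 in LFC (SD, n = 6 each). For each of the 6 genes no neighbours in the order differed by more than their SD, which does not speak to the ends of the order. Neighbours in a sorted order lie close by construction, and this SD leaves out the pairing by week, so no conclusion is drawn from it. For Apln the ends, HF5 and LFC, lay further apart than the SD of either, and their levels were not compared by a test. In HF20 minus HFC, Retn was 1.69 (SE 0.89, limma p = 0.0687), Rbp4 1.15 (SE 0.61, p = 0.0751) and Apln -0.78 (SE 0.45, p = 0.0926), and without week 6 they came to 0.94, 0.70 and -1.16. Without week 12 they were 1.13, 0.72 and -0.59, and without both weeks 0.044, 0.056 and -1.02.

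Across the arrays Adipoq, Retn, Rbp4 and Lep followed the adipocyte markers, and Nampt and Apln did not. Over the 37 arrays other than the ringed ones, Adipoq, Retn and Rbp4 correlated with each other at r = 0.85 to 0.94 and Lep with each of them at 0.69 to 0.76. With the median of the adipocyte markers r was 0.93 for Adipoq, 0.92 for Rbp4, 0.90 for Retn and 0.72 for Lep, against 0.17 for Nampt and 0.05 for Apln. No correlation with the other genes or the marker lists is given for Cfd, whose level is held by saturation on 27 of the 39 arrays. The 4 genes ran opposite to the markers of adipose progenitors, with r of -0.58 to -0.63, and to those of endothelium, with r of -0.38 to -0.68. The arrays share tissue composition, diet and scan date, and these values are descriptions.

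**Figure D5:**
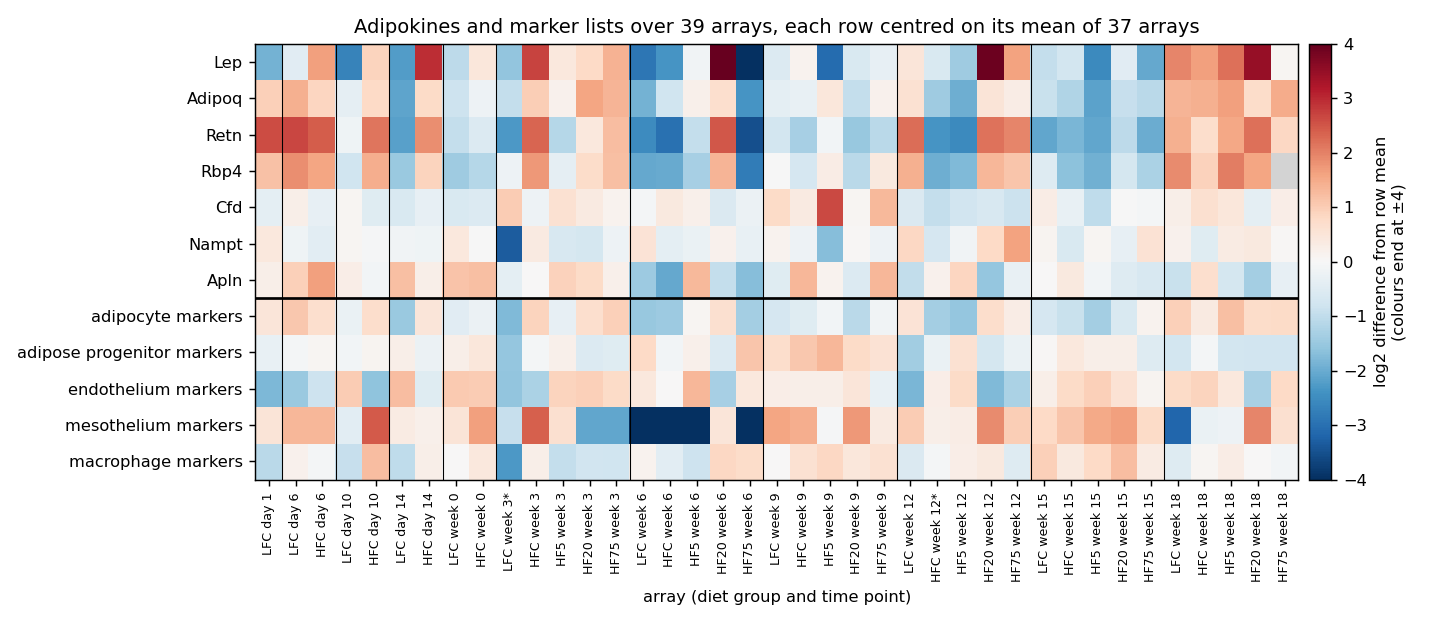
Level of the 7 genes and of 5 marker lists (rows, log2 relative to the mean of the row over 37 arrays, colours ending at -4 and 4) on the 39 arrays (columns, by time point and group), with an asterisk on LFC week 3 and HFC week 12 and grey where a spot was left out. Lep, Adipoq, Retn and Rbp4 rise and dip on the same columns as the adipocyte markers, and the mesothelium markers are low on 4 of the 5 week 6 columns.

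By level over the same arrays, Adipoq was followed most closely by Apol6, Dgat2 and Pck1, all at r = 0.94, of which Dgat2 makes triglyceride and Pck1 makes its glycerol backbone. These 3 were saturated on 10, 13 and 16 of the 37 arrays and Adipoq itself on 16. How much of this likeness is one of saturated spots was not tested. Retn was followed by Mrap (0.98), Aldh1l1 (0.97) and Cdo1 (0.97). Rbp4 was followed by LOC100047573 (0.99), 5730469M10Rik (0.97) and Cd1d1 (0.96), saturated on 5, 10 and 5 of the 37 arrays.

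Genes around the adipokines were grouped in 8 lists, and none of their members was called after adjustment in the comparisons of diet. Over 10 time points none of 12 receptors, 12 genes of leptin and adiponectin signalling, 15 regulators of adipokine genes, 9 relatives of adiponectin of the C1q/TNF family and 9 genes of NAD salvage reached an unadjusted p under 0.05, where 3.05% of all probes did. Fgf21, a metabolic hormone, was the only one of 28 other adipokines tested to do so, at -1.15 (SE 0.49, limma p = 0.0387). Cfi, the protease that inactivates the products of the pathway Cfd starts, was the only one of 7 complement genes, at -1.98 (SE 0.89, p = 0.0450). Lrat, which esterifies retinol for storage, was the only one of 9 genes of vitamin A handling, at -0.73 (SE 0.24, p = 0.0135). Each of these had adjusted p = 0.998.

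The medians of the 8 lists lay between -0.13 and 0.14, beside 0.03 over all probes and 0.41 over the 7 genes. Late against early within LFC, Tlr4 was 0.83 higher (SE 0.35, limma p = 0.0333, adjusted p = 0.844). C1qtnf6 was 1.79 lower (SE 0.62, limma p = 0.0138, adjusted p = 0.628). Parp1, of the NAD salvage list, was 1.20 lower (SE 0.46, limma p = 0.0230, adjusted p = 0.779). Of all probes in that comparison, 5.52% had p under 0.05 and 0.49% were called after adjustment. Within HFC, 7 of 15 regulators and 7 of 28 other adipokines had p under 0.05 and were higher late, and 1 and 2 were lower, in a comparison where 17.3% of all probes had p under 0.05 and 0% were called after adjustment.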

How the data were processed

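Per the file headers, the deposited intensity of each spot is the processed signal of Feature Extraction 10.5.1.1 (9.1 in the labels), after background subtraction and spatial detrending and with no scaling between arrays. The authors also deposited log2 differences of each array to LFC at its time point, used only as a check, and these correlated with differences from the scanner signals at r of 0.992 or more.

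Outlier spots were set to missing, spots of a probe averaged, the processed signal log2 transformed and the 75th percentile of each array subtracted. Probes well above background on at least 10 of 20, 6 of 30, 5 of 11 (LFC) or 5 of 10 (HFC) arrays entered fits by limma 3.58.1 (R 4.3.3), and comparisons between diets had time point as a block. Early arrays are days 1 to 14 and week 0, late arrays weeks 3 to 18. Exact two-sided tests flipped signs of paired differences or permuted arrays within a diet. The brightest probe by mean normalised signal stood for each gene, and for each the 3 most correlated names and, of each list, up to 2 per direction with the smallest p over 10 time points or within LFC could be named. The members and lists were chosen with earlier results of these data known. Scripts were tested on simulated data. Further tools were the R package data.table (1.17.8), Python 3.11.15, numpy 2.4.6, pandas 2.3.3 and matplotlib 3.10.9. Alternatives covered background correction, scaling, filters, outlier and saturated spots, array weights, scan date, slide and each time point left out. With 1 array per diet and time point, the number of arrays limits the precision.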

Additional observations from a re-analysis of the deposited data

Results flagged for a closer look

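Apln in HFC at week 6 was -1.15, below the other 9 HFC arrays, of which the nearest was 0.80. The gap was 0.53 of the whole range of the group, above the critical value of 0.466 for 10 arrays. It was the only such value among 28 groups, the 7 genes in HFC, HF5, HF20 and HF75, where chance gives about 1 in 20. LFC, with 11 arrays, was too large for this comparison, which therefore leaves out Nampt at week 3 (-1.66). On the HFC week 6 array the mesothelium markers were also low, 4.98 below their mean, and their part in the value was not tested.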

How the results depend on the processing

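No paired block by animal could be had, and time point served as the replicate block between diets. With no replicate block, Lep over 10 time points was 1.67 (SE 0.65, limma p = 0.0183) and the count of called probes stayed at 0. Over all alternatives Lep was 1.27 to 1.97 over 10 time points (limma p 0.00386 to 0.0398, adjusted p 0.405 to 1.00), 2.38 to 3.62 early and 0.01 to 1.14 late, and Apln within LFC was -2.46 to -1.28 (adjusted p 0.0595 to 1.00). Of 639 member values under alternatives, 22 changed sign and 2 passed the threshold where the reported value did not, Nampt by the exact test with 8 pairs and Retn within HFC with array weights (-3.31, adjusted p = 0.0170). Averaging day 14 and week 0 took Lep by the exact test to p = 0.0625. The members with an exact p under 0.05, 1 over 10 pairs, were 2 over 8 pairs and 0 with day 14 and week 0 averaged.

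Signs changed for Rbp4, Cfd, Nampt and Apln. Rbp4 over 10 time points was -0.21 to 0.42 when 1 time point was left out (negative without day 10, day 14 or week 3), -0.056 with array weights, -0.17 with scan date as the block, -0.015 with slide as a random block, -0.039 with the percentile over detected spots and -0.053 with saturated spots left out, and by exact test -0.10 with day 14 and week 0 averaged and -0.29 minus the adipocyte markers. Cfd over 10 time points was 0.0085 under quantile scaling and 0.047 with saturated spots left out, and early 0.13 under quantile scaling. Nampt over 10 time points was 0.29 under quantile scaling and -0.56 to 0.015 with 1 time point left out (positive without week 12), and late 0.63 under quantile scaling, 0.042 under median scaling and -0.84 to 0.20 with 1 week left out (positive without week 6, 12, 15 or 18). Apln early was -0.43 to 0.12 with 1 time point left out (positive without day 14). Causes were not tested.

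Counts of called probes moved more. With saturated spots left out there were 2 for HFC against LFC over weeks 3 to 18, 1 for the mean of 4 high fat groups, 2 for HF5, 5 for HF20 and 2 for HF75, and the mean of 3 doses gave 0 to 1 with 1 week left out. Within LFC the 149 became 48 to 210 with 1 time point left out, 324 with array weights, 40 where each array had to lie well above background, 0 with normexp, 67 under quantile and 78 under median scaling, 82 with outliers kept, 272 with saturated spots left out, 0 with a linear trend over days and 1 within 1 scan period. Within HFC the 0 became 0 to 823 with 1 time point left out (823 without week 0), 7504 with array weights, 41 under median scaling, 106 with saturated spots left out and 5 within 1 scan period.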
